A study of Mus musculus with 4 samples.

Results

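The chemokine family was described here through 44 genes chosen by name, namely CC, CXC and CX3C chemokines, their receptors and the atypical chemokine receptors, out of 24532 genes in the expression table. They comprised 29 ligands, 11 receptors and 4 atypical receptors, and all 44 were found in the table by their gene symbol. Of these, 34 reached 1 FPKM (fragments of a transcript, scaled to its length and to the depth of the library) in at least 1 library. The naming rule itself uses no measured value, and further genes of the family in the table were not among the 44.

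RNA sequencing had been performed on knee cartilage of wild type C57BL/6 mice in 4 groups, namely sham and injured cartilage of young mice and of adult mice. Age was 3 weeks for the young group, while the adults are given as 12 weeks in the sample titles, 14 weeks in the age field and 10 weeks in the methods of the study. The injured cartilage is described in the methods as a full-thickness cartilage injury sampled at day 3, whereas the sample titles name DMM surgery, and the adult sham library carries a label spanning day 3 to day 14. Each group was 1 library, made by pooling male mice (5 uninjured or 10 injured), so no value below has a replicate error and no difference could be tested. The labels give the cell type as chondrocyte, and 12 of 12 chondrocyte markers in the table were at 1 FPKM or more in every library, with Col2a1 between 3173 and 9349 FPKM. Markers of other cells were present as well: 14 macrophage and monocyte markers summed to 218.7, 1968, 346.6 and 1712 FPKM, and 12 neutrophil markers summed to 1246, 2531, 1649 and 1994 FPKM, in the sham and injured library of young and then of adult mice. In such bulk tissue, more cells of a type and more RNA per cell cannot be told apart.

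Chemokines are small secreted proteins that guide leukocytes along gradients by binding receptors coupled to inhibitory G proteins. CC ligands mainly attract monocytes, macrophages and T cells, the CXC ligands of Cxcr2 attract neutrophils, and a few ligands such as Cxcl12 and Cxcl14 are made constitutively by stromal cells. Atypical receptors bind chemokines without G protein signaling and remove or transport them.

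Each series of 4 values runs from the sham and injured libraries of young mice to the sham and injured libraries of adults, and a pair of ratios gives young before adult. Ratios are log2 ratios of FPKM + 1, a scale on which changes of weakly expressed genes appear too small, and a gene was counted as changed at 2-fold or more, which is a log2 ratio of 1. Where a sham library lists a gene at 0 or at a few fragments, the levels are given and no injury ratio.

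In young cartilage, 21 of 44 members were 2-fold or more higher in injured than in sham cartilage and 0 were lower. Across the 18181 genes above 0 in any library, 4.57% were higher and 1.27% lower in that comparison. The median log2 ratio was 0.90 over the 44 members and 0.00 over all genes. In adult cartilage, 22 members were higher and 2 lower, against 6.9% higher and 1.46% lower of all genes, with medians of 1.07 and 0.14. After median-of-ratios scaling the adult counts were again 22 and 2 members, against 4.77% and 2.503% of all genes. Among the 13209 genes at 1 FPKM or more in any library, 6.28% were higher in young and 9.50% in adult injured cartilage. Among the 29 ligands, 17 were higher after injury in young animals and 16 in adults. Of the 11 receptors, with the non-signaling Ccrl2 counted among them, 4 and 6 were higher. These receptor counts depend on the added 1. Without it, Cxcr2 (2.63-fold), Ccr7 (2.51-fold) and Ccrl2 (2.25-fold) also exceeded 2-fold in young mice. Of the 4 atypical receptors, 0 were higher at either age with 1 FPKM added, although Ackr1 was 2.18-fold and 2.56-fold higher in FPKM without the added 1. The macrophage markers moved in the same direction, with 12 of 14 higher at both ages; their part in the member ratios was not tested.

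**Figure D1:**
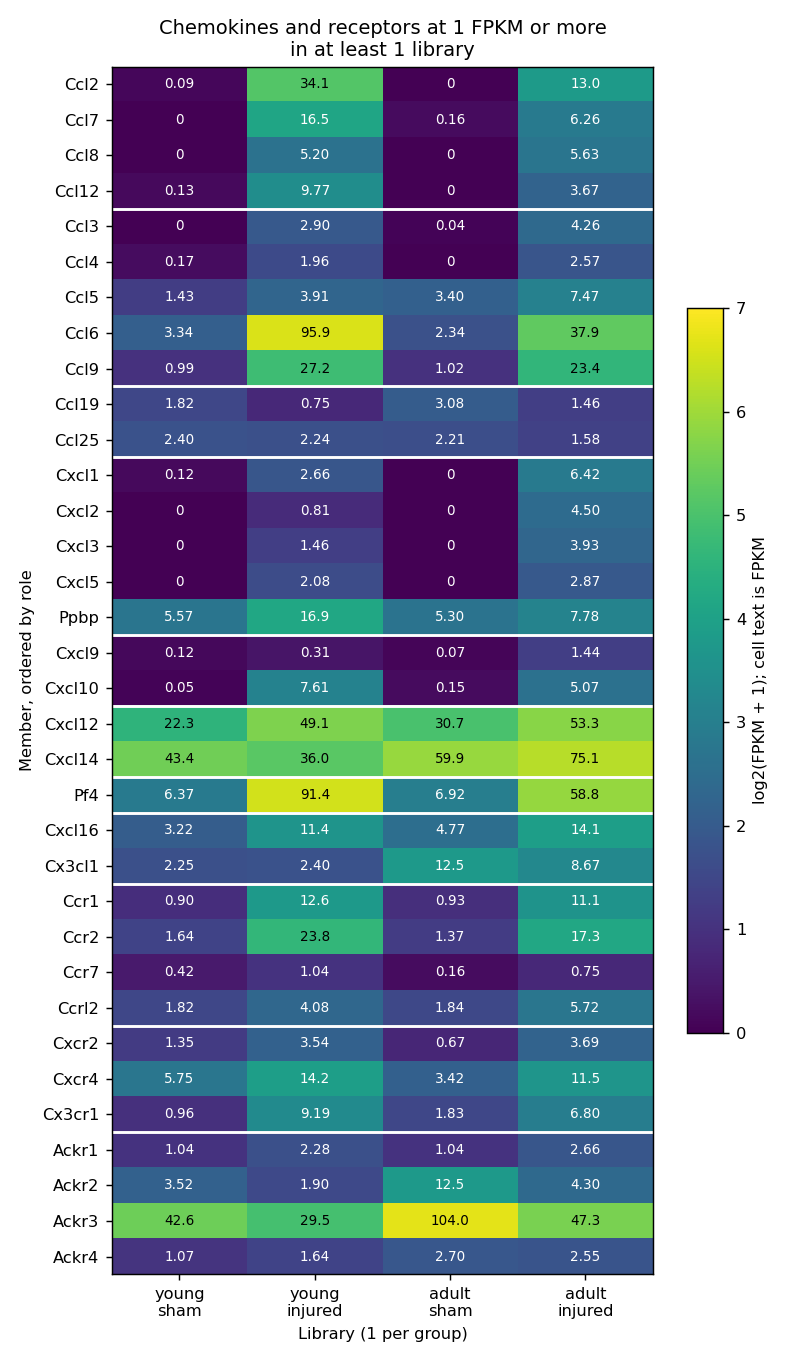
Heatmap of the 34 members at 1 FPKM or more in at least 1 library, in rows ordered by role with white lines between roles, in the 4 libraries (1 per group). Color is log2(FPKM + 1) and the printed number is FPKM; the 4 ligands of Ccr2 at the top are below 0.2 FPKM in both sham libraries and between 3.67 and 34.1 FPKM in the injured ones.

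The monocyte-attracting ligands of Ccr2 were nearly absent from sham cartilage and present in injured cartilage at both ages. Ccl2 was at 0.0948, 34.1, 0 and 13.04 FPKM. Ccl7 was at 0, 16.5, 0.156 and 6.26 FPKM, and Ccl12 was at 0.126, 9.77, 0 and 3.67 FPKM. For these 3 ligands the young injured library was the highest of the 4. Ccl8, at 0, 5.20, 0 and 5.63 FPKM, was at about the same level in both injured libraries. The sum of the 4 ligands was 0.221, 65.5, 0.156 and 28.6 FPKM. Their receptor Ccr2, which brings inflammatory monocytes out of the blood, was at 1.64, 23.8, 1.37 and 17.3 FPKM, with log2 ratios of 3.23 and 2.95.

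The other inflammatory CC ligands, several of which bind Ccr1, held the most abundant chemokine of the young injured library. Ccl6, a myeloid CC ligand found in rodents, was at 3.34, 95.9, 2.34 and 37.9 FPKM (log2 ratios 4.48 and 3.54). Ccl9, encoded next to it, was at 0.994, 27.2, 1.02 and 23.4 FPKM (3.82 and 3.60). Both were thus far higher in injured than in sham cartilage at both ages, with Ccl6 higher in the young injured library. Ccl3 (0, 2.90, 0.0411 and 4.26 FPKM) and Ccl4 (0.174, 1.96, 0 and 2.57 FPKM), which macrophages secrete on activation, reached lower levels, and both were higher in the adult injured library. Ccl5, a product of T cells and many stimulated cells, was measurable in both sham libraries, at 1.43, 3.91, 3.40 and 7.47 FPKM. Its log2 ratios, 1.01 and 0.94, lie on either side of the threshold and differ little. The receptor Ccr1 was at 0.896, 12.6, 0.932 and 11.1 FPKM (2.84 and 2.65).

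Of the 5 neutrophil-attracting ligands of Cxcr2, Cxcl1, Cxcl2, Cxcl3 and Cxcl5 were higher in the adult than in the young injured library, whereas the platelet-stored Ppbp, described further on, was higher in the young one. Cxcl1 was at 0.121, 2.66, 0 and 6.42 FPKM. Cxcl2 was at 0, 0.811, 0 and 4.50 FPKM, and Cxcl3 was at 0, 1.46, 0 and 3.93 FPKM. All 3 were nearly absent from sham cartilage and highest in adult injured cartilage, where they rested on approximately 157, 128 and 102 fragments, against 66.6, 23.6 and 38.9 in the young injured library. Cxcl5, at 0, 2.08, 0 and 2.87 FPKM, differed less between the injured libraries. Together these 4 ligands, grouped in addition to the planned set of 5, summed to 0.121, 7.01, 0 and 17.7 FPKM. That sum was 2.53-fold higher in adult than in young injured cartilage. With Ppbp included, the sum was 5.69, 23.9, 5.30 and 25.5 FPKM and thus about equal in the injured libraries. The receptor Cxcr2, carried by neutrophils, was at 1.35, 3.54, 0.673 and 3.69 FPKM (0.95 and 1.49) and was thus nearly equal in the injured libraries. The 12 neutrophil markers went both ways between the injured libraries, with S100a9 at 1074 FPKM in young and 820.7 in adult, and Mpo at 14.0 and 29.3. Mpo was the 1 marker 2-fold or more lower in young injured cartilage, and 0 were higher; the part of neutrophils in the ligand levels was not tested.

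The promoters of Cxcl1, Cxcl2 and Cxcl3 hold the same 11 letters of a kappaB match, the binding motif of NF-kB factors, and are printed here because these neighboring genes had the same order across libraries. Cxcl10 is shown for its separate pair of kappaB matches and its match to the interferon-stimulated response element (GAAANNGAAA). Sequences are RefSeq promoter stretches of GRCm38.p6 that end at the base before the annotated start, written 5′ to 3′ on the gene's strand, with motif matches in capitals. They lie at chr5:90891125-90891244 (plus strand) for Cxcl1, chr5:90903779-90903898 (plus) for Cxcl2, chr5:90785981-90786100 (plus) for Cxcl3 and chr5:92348890-92349129 (minus) for Cxcl10.
Cxcl1: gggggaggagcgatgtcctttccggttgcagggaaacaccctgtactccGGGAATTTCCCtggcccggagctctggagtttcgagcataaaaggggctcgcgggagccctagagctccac
Cxcl2: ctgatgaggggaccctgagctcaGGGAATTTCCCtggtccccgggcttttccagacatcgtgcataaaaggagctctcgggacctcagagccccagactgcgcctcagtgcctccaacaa
Cxcl3: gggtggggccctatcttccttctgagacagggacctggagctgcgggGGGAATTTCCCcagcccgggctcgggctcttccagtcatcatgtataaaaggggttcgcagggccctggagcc
Cxcl10: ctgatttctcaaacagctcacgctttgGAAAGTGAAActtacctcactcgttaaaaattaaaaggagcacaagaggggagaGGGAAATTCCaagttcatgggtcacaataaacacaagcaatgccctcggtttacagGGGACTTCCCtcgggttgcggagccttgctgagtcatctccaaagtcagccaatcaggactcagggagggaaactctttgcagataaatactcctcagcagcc

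Counted upstream from the base before the start, the shared match lies at 71 to 61 in Cxcl1, 97 to 87 in Cxcl2 and 73 to 63 in Cxcl3. The Cxcl10 promoter has kappaB matches at 159 to 150 and 103 to 94 and the interferon element at 213 to 204. On either strand, a kappaB match was present in the 250 bases upstream of 3.90% of 32851 mouse promoters, GAAANNGAAA in 2.98% and the gamma-activated site TTCNNNGAA in 7.02%. Promoters were given for 33 of the 44 members. A kappaB match was found for 8 of these members (Ackr2, Ccl9, Ccr3, Ccrl2, Cxcl1, Cxcl2, Cxcl3 and Cxcl10), an interferon element for Ccl19, Cxcl10 and Cxcl14, and a gamma-activated site for Ccl17 and Cxcl14. These members include genes that were higher after injury, lower, or neither, and a match describes letters, not factor binding.

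The interferon-inducible ligands of Cxcr3, which draw activated T cells and NK cells, were led by Cxcl10. Cxcl10 was at 0.0512, 7.61, 0.148 and 5.07 FPKM, below 0.2 FPKM in both sham libraries and somewhat higher in the young than in the adult injured one. Cxcl9 was at 0.118, 0.313, 0.0671 and 1.44 FPKM, so that the adult injured library alone exceeded 1 FPKM. Cxcl11 stayed at or below 0.265 FPKM and Cxcr3 at or below 0.480 FPKM. The 9 T and NK cell markers summed to 2.16, 4.66, 1.73 and 9.18 FPKM, with Cd3g at 0 in young sham and Cd3e at 0 in adult sham cartilage; their part in the Cxcl9 levels was not tested.

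**Figure D2:**
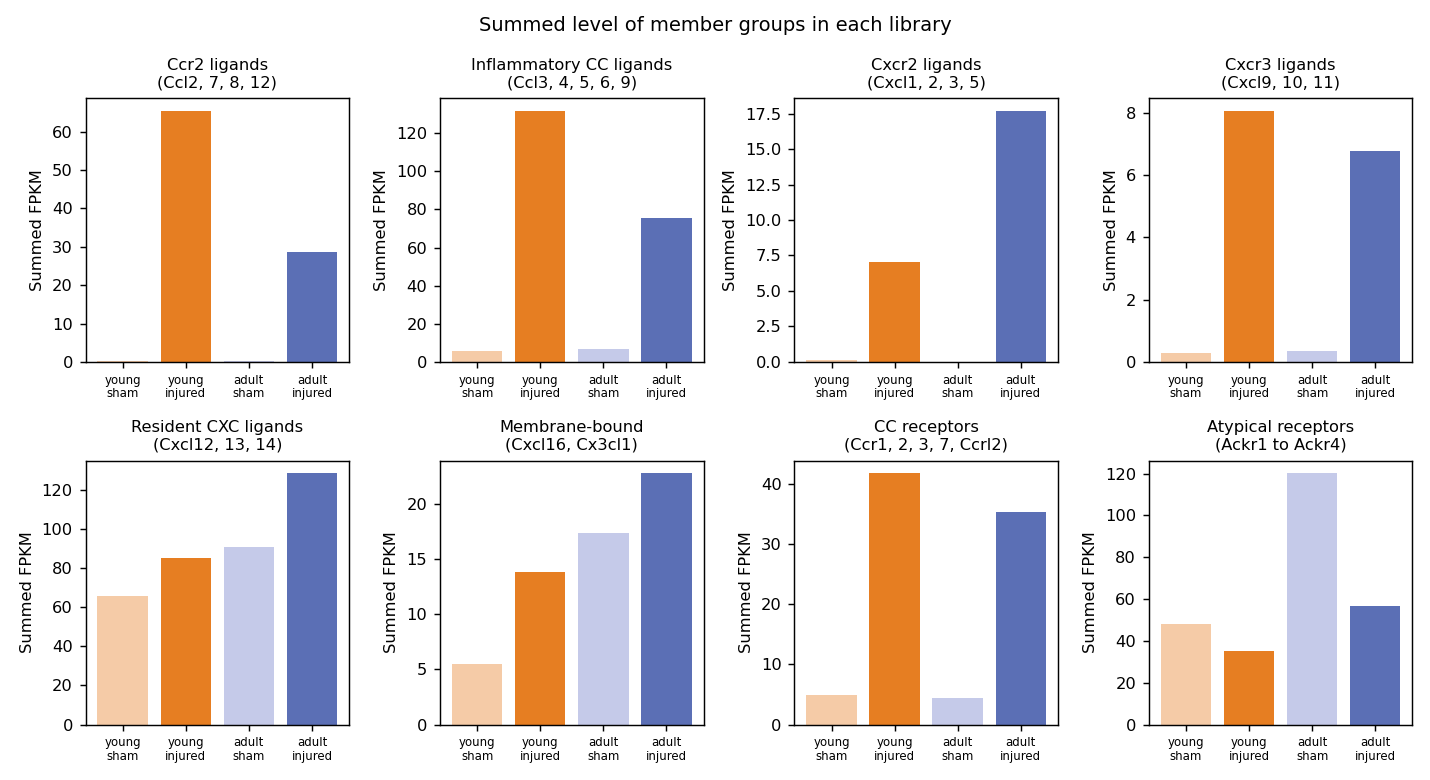
Bar charts of the summed FPKM of 8 member groups in each of the 4 libraries (1 per group, no error bars), each panel with its own vertical axis from 0; low-level members named in the panel titles are included in the sums. The Ccr2 ligands sum to 65.5 FPKM in young and 28.6 in adult injured cartilage, and the Cxcr2 ligands without Ppbp to 7.01 and 17.7. With Ppbp, which is not drawn, the latter sum is 23.9 and 25.5. The atypical receptors are highest in adult sham cartilage at 120.2.

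The platelet-stored CXC ligands had measurable levels in sham cartilage. Pf4 was at 6.37, 91.4, 6.92 and 58.8 FPKM (log2 ratios 3.65 and 2.92), which made it the member ranked behind Ccl6 in young injured cartilage and behind Cxcl14 in adult injured cartilage. Ppbp, from which a ligand of Cxcr2 is cleaved, was at 5.57, 16.9, 5.30 and 7.78 FPKM (1.44 and 0.48). At both ages Pf4 thus had the larger ratio. The 8 platelet and megakaryocyte markers summed to 8.72, 25.9, 13.3 and 13.6 FPKM, with Gp6 at 0 in both adult libraries. Gp1bb alone was at 9.94 and 8.48 FPKM in adult sham and injured cartilage and so made up most of the adult sums. The part of platelets in the Pf4 and Ppbp levels was not tested.

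The constitutive stromal ligands were the most abundant chemokines of sham cartilage and had modest injury ratios. Cxcl12, the ligand of Cxcr4 that retains stem cells and leukocytes in marrow, was at 22.3, 49.1, 30.7 and 53.3 FPKM (1.11 and 0.78). Cxcl14 was at 43.4, 36.0, 59.9 and 75.1 FPKM (-0.27 and 0.32). Cxcl12 was thus higher in both injured libraries than in either sham library, whereas Cxcl14 was higher in both adult libraries than in either young one. Cxcl13, the B cell follicle ligand, stayed at or below 0.164 FPKM. Cxcr4 was at 5.75, 14.2, 3.42 and 11.5 FPKM (1.17 and 1.498), again higher in both injured libraries.

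Of the 2 membrane-bound ligands, Cxcl16 (3.22, 11.4, 4.77 and 14.1 FPKM) was higher after injury at both ages, with log2 ratios of 1.55 and 1.39. Cx3cl1, or fractalkine, was at 2.25, 2.40, 12.5 and 8.67 FPKM (0.06 and -0.48), so its levels separated the ages rather than injured from sham. Its receptor Cx3cr1, a marker of monocytes and resident macrophages, was at 0.960, 9.19, 1.83 and 6.80 FPKM (2.38 and 1.46), higher in both injured libraries. The Cxcl16 receptor Cxcr6 stayed at or below 0.221 FPKM.

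The ligands of lymphocyte and dendritic cell traffic were at low levels, at or below 3.08 FPKM in every library. Ccl19, a ligand of Ccr7, was at 1.82, 0.748, 3.08 and 1.46 FPKM (-0.69 and -0.73), lower in injured cartilage at both ages. It missed the threshold because of the added 1 FPKM, and with 0.1 FPKM added in its place the ratios were -1.18 and -1.03. Its transcript shares 58.8% of its 31-base stretches with the near-identical Gm2564, so its reads could have been divided between copies and its level is uncertain. Ccl25, a ligand of Ccr9, was at 2.40, 2.24, 2.21 and 1.58 FPKM (-0.07 and -0.31). Ccr7 was at 0.416, 1.04, 0.165 and 0.751 FPKM. The Ccr4 ligand Ccl22 was at 0.0422, 0.525, 0.161 and 0.843 FPKM, higher in both injured libraries at levels under 1 FPKM. The other Ccr4 ligand, Ccl17, stayed at or below 0.445 FPKM, the eotaxins Ccl11 and Ccl24 at or below 0.363 and 0.749 FPKM, their receptor Ccr3 at or below 0.522 FPKM and the B cell receptor Cxcr5 at or below 0.804 FPKM. Ccrl2, which presents chemerin without itself signaling, was at 1.82, 4.08, 1.84 and 5.72 FPKM (0.85 and 1.24).

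The atypical receptors differed among themselves, with Ackr2 and Ackr3 lower and Ackr1 higher in the injured library of each age. Ackr3, which removes Cxcl12 and Cxcl11, was at 42.6, 29.5, 104.0 and 47.3 FPKM (-0.52 and -1.12). Ackr2, which removes inflammatory CC ligands, was at 3.52, 1.90, 12.5 and 4.30 FPKM (-0.64 and -1.34). Both were highest in adult sham cartilage and lower in the injured library of each age, by 2-fold or more in adults only; whether the ages differ was not tested. In adults, 6 of 8 skeletal muscle markers were also lower after injury (summed level 1177 and 350.8 FPKM in sham and injured cartilage), as were 2 of 8 synovial fibroblast markers, Dpt and Htra4 (summed level 227.2 and 143.4 FPKM, with Has1 higher). Their part in the Ackr2 and Ackr3 levels was not tested. Ackr4, which removes Ccl19 and Ccl25, was at 1.07, 1.64, 2.70 and 2.55 FPKM (0.35 and -0.06). Ackr1, the chemokine-transporting receptor of venules and red cells, was at 1.04, 2.28, 1.04 and 2.66 FPKM (0.68 and 0.84), and 23.0% of its 31-base stretches are shared with the transcript of Cadm3. The 10 endothelial markers summed to 33.3, 112.5, 41.1 and 103.3 FPKM, with 7 of 10 higher after injury at each age, and the 9 erythroid markers to 9682, 18448, 6957 and 3033 FPKM; their part in the Ackr1 level was not tested. The summed level of the 4 atypical receptors, most of it Ackr3, was 48.2, 35.3, 120.2 and 56.8 FPKM, while that of the 29 ligands was 94.4, 424.7, 133.6 and 351.3 FPKM.

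**Figure D3:**
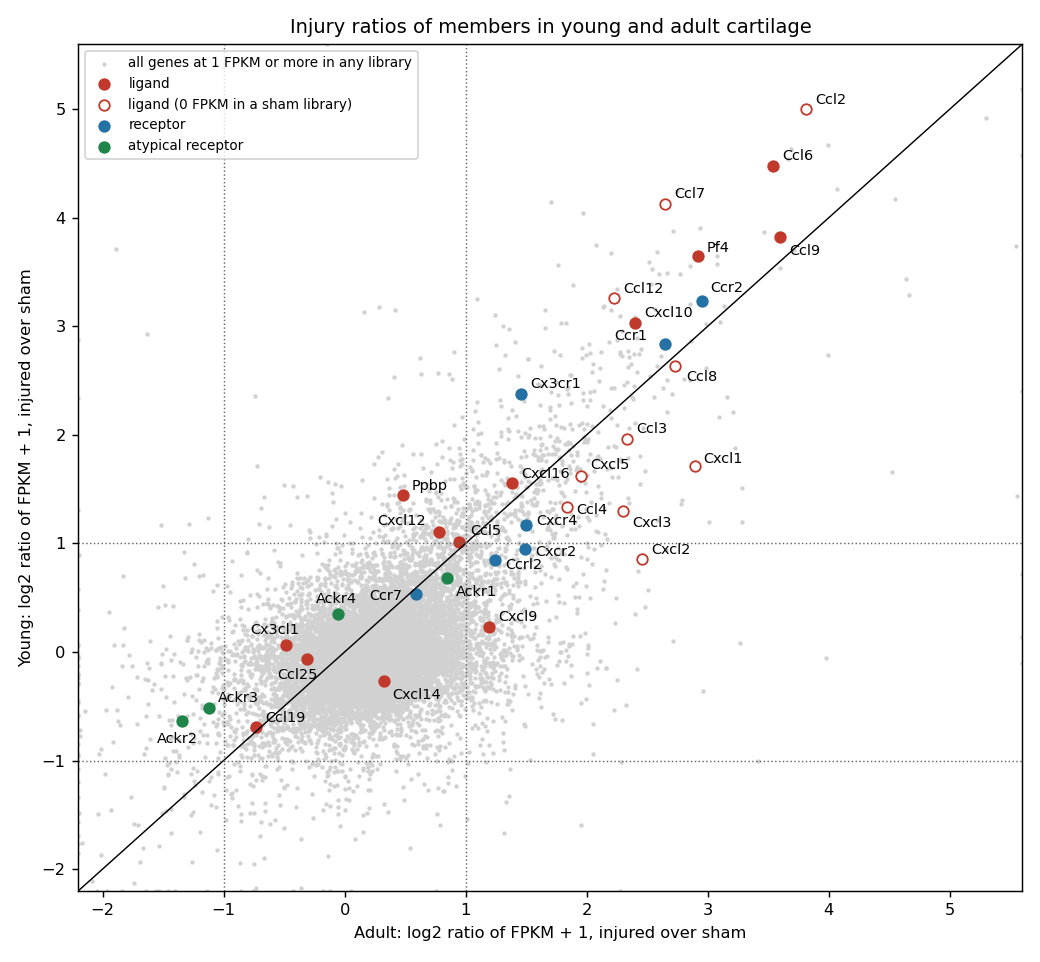
Scatter plot of the log2 ratio of FPKM + 1, injured over sham, in adult (horizontal) and young mice (vertical), for the 34 members at 1 FPKM or more in any library and, in gray, all genes at that level; genes beyond the axes are drawn at the edge, dotted lines mark 2-fold and the solid line equal ratios. Open circles are ligands listed at 0 in a sham library, whose position depends on the added 1 FPKM; Ccl6 (4.48 and 3.54 in young and adult) and Pf4 lie far up the line, and Ackr2 and Ackr3 lie below 0 at both ages.

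Within the chromosomal clusters, some neighbors moved together and others stayed low. On chromosome 11, between 82035577 and 82116799 (GRCm38.p6, the assembly of mm10), Ccl2, Ccl7, Ccl12 and Ccl8 were higher after injury at both ages, whereas Ccl11, located between Ccl7 and Ccl12, stayed at or below 0.363 FPKM. In a second chromosome 11 cluster, from 83525778 to 83664683, Ccl9, Ccl6, Ccl3 and Ccl4 were higher at both ages, and Ccl5 at one end had the smallest ratios. On chromosome 5, between 90759298 and 90905938, Cxcl5, Ppbp, Pf4, Cxcl3, Cxcl1 and Cxcl2 follow each other; Ppbp and Pf4 had larger ratios in young mice and the other 4 in adults. Cxcl9, Cxcl10 and Cxcl11 lie on the same chromosome from 92321331 to 92363296, and of these Cxcl10 was the highest in both injured libraries. On chromosome 9, from 123806477 to 124109140, Ccr1 and Ccr2 were higher after injury, whereas Cxcr6 and Ccr3 stayed below 1 FPKM. On chromosome 8, from 94745684 to 94812038, lie Ccl22, Cx3cl1 and Ccl17, of which Ccl22 and Ccl17 stayed below 1 FPKM. Annotated spans of Ccl3 and Ccl4 overlap in part; the libraries were made with a stranded kit, but whether reads were assigned by strand is not given in the sources used here.

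**Figure D4:**
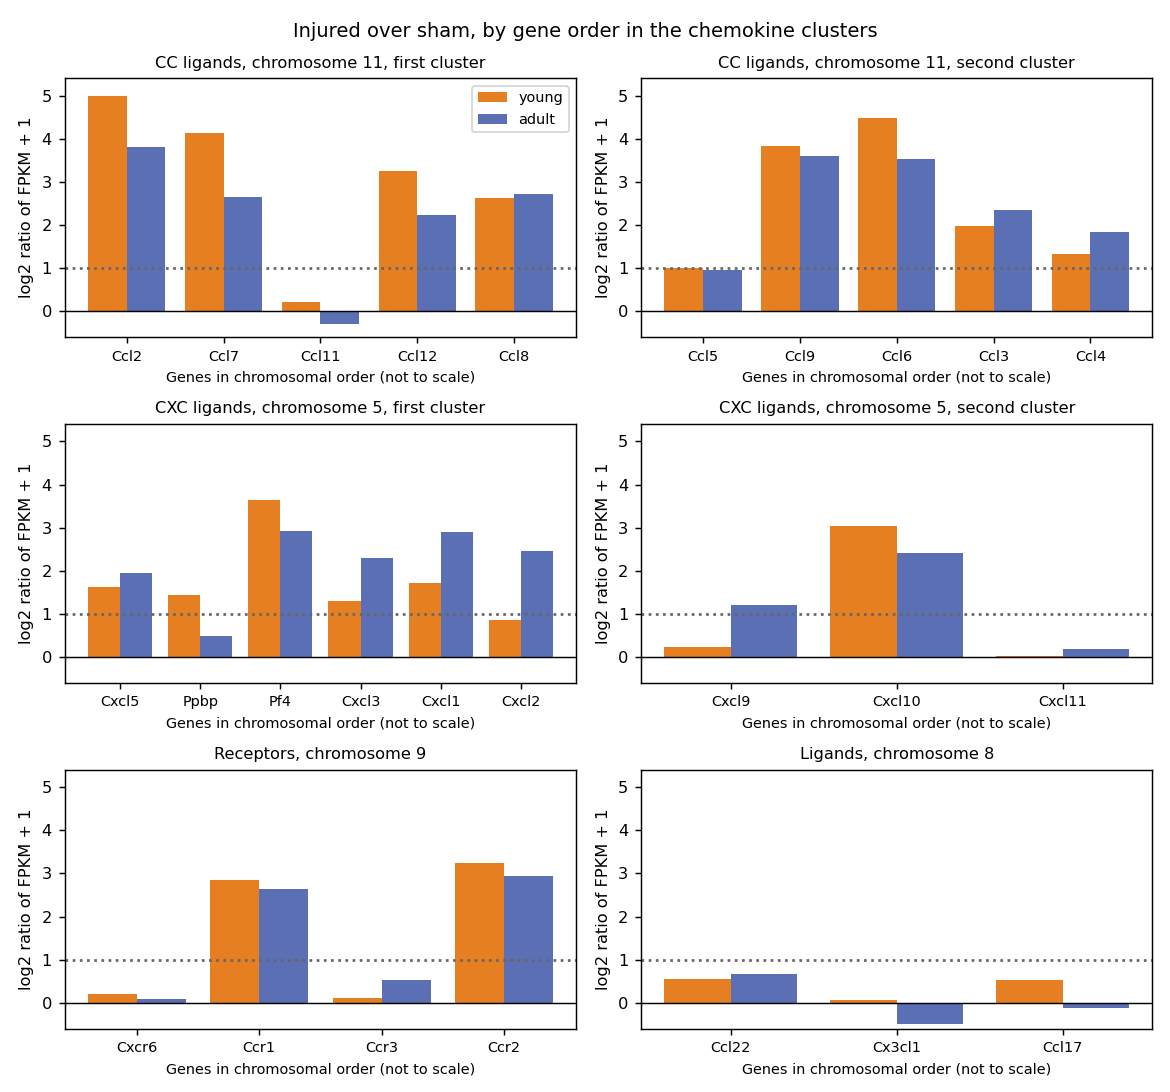
Bar charts of the log2 ratio of FPKM + 1, injured over sham, in young and adult mice (1 library per group, no error bars), for 6 chromosomal clusters with genes in order along the chromosome and not to scale; the dotted line marks 2-fold. Bars of genes listed at 0 in a sham library depend on the added 1 FPKM; Ccl11, Cxcr6 and Ccr3 stay under the line beside neighbors above it.

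Between the sham libraries few members reached 2-fold, but with 1 FPKM added a gene below 1 FPKM in both libraries cannot do so. With 0.1 FPKM added, more members did, as given in the closing section. Of the 44, 3 (6.82%) were 2-fold or more higher in adult than in young sham cartilage, against 2.66% of all genes. Of the members, 0 were lower, against 10.6% of all genes. This lopsided background depends on the scaling: after median-of-ratios scaling 5.35% of all genes were higher and 5.56% lower, with 5 members higher and 0 lower. As deposited, the 3 were Cx3cl1, Ackr2 and Ackr3, with log2 ratios of 2.06, 1.57 and 1.27. The next were Ccl5 at 0.86 and Ackr4 at 0.84, and the lowest of the 34 members at 1 FPKM or more was Cxcr4 at -0.61. The median was 0.00 over the members and -0.15 over all genes. The order of abundance differed accordingly, with Cxcl14, Ackr3 and Cxcl12 leading in young sham cartilage and Ackr3, Cxcl14, Cxcl12 and Cx3cl1 in adult sham cartilage. In the adult sham library, 8 osteoblast markers summed to 1445 FPKM against 262.8 in young sham cartilage, 8 skeletal muscle markers to 1177 against 499.9, and 9 B cell markers to 15.0 against 64.9. The 8 synovial fibroblast markers summed to 227.2 against 113.8, 6 of 14 macrophage markers were higher and 1 lower, and 8 of 12 chondrocyte markers were lower and 1 higher. Their part in the levels of Cx3cl1, Ackr2 and Ackr3 was not tested.

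The injured libraries were then compared directly; they are the same libraries as in the injury ratios above, so these values are not independent of them. Of the 44 members, 5 were 2-fold or more higher in young injured cartilage and 5 were 2-fold or more higher in adult injured cartilage, against 3.09% and 1.8% of all genes. With TPM the counts were 4 and 8 members, against 3.40% and 3.44%. As deposited, higher in young were Ccl2 (log2 ratio 1.32), Ccl6 (1.32), Ccl7 (1.27), Ccl12 (1.20) and Ppbp (1.03). Higher in adult were Cxcl2 (-1.60), Cx3cl1 (-1.51), Cxcl14 (-1.04), Cxcl1 (-1.02) and Cxcl3 (-1.002). Thus 3 of the 4 Ccr2 ligands were on the young side, while of the 5 Cxcr2 ligands 3 were on the adult side and Ppbp on the young side. With 5 FPKM added, fewer members differed 2-fold, as given in the closing section. Ppbp fell short of 2-fold when the libraries were rescaled, with 0.89 to 0.98 under 3 other scalings, and Cxcl3 lies at the threshold itself. The median ratio was -0.11 over the members and 0.04 over all genes. Over the 34 members at 1 FPKM or more it was -0.14, against 0.09 over the 13209 genes at that level. Among these 34, only the sign of Ccr1 (0.17) differed between the deposited FPKM and the 3 rescalings. Several of the other ratios lay near 0, such as Ccl8 at -0.10. None of the 11 receptors reached 2-fold in this comparison, with Ccr2 at 0.44, Cx3cr1 at 0.39, Cxcr4 at 0.28 and Cxcr2 at -0.05. Cxcr5 had the largest ratio, 0.60, at 0.804 FPKM in young and 0.191 in adult injured cartilage. At such levels the added 1 FPKM holds it below 2-fold. Among the marker lists, 9 of 9 erythroid, 7 of 9 B cell, 2 of 8 eosinophil and mast cell and 1 of 8 platelet markers (Gp9) were 2-fold or more higher in young injured cartilage. In adult injured cartilage, 4 of 8 osteoblast and 3 of 8 synovial fibroblast markers were higher. Of 12 chondrocyte markers, 4 were higher in young and 2 in adult injured cartilage. Of the macrophage markers, 1 of 14 was higher in young; the part of these cells in the member ratios was not tested.

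**Figure D5:**
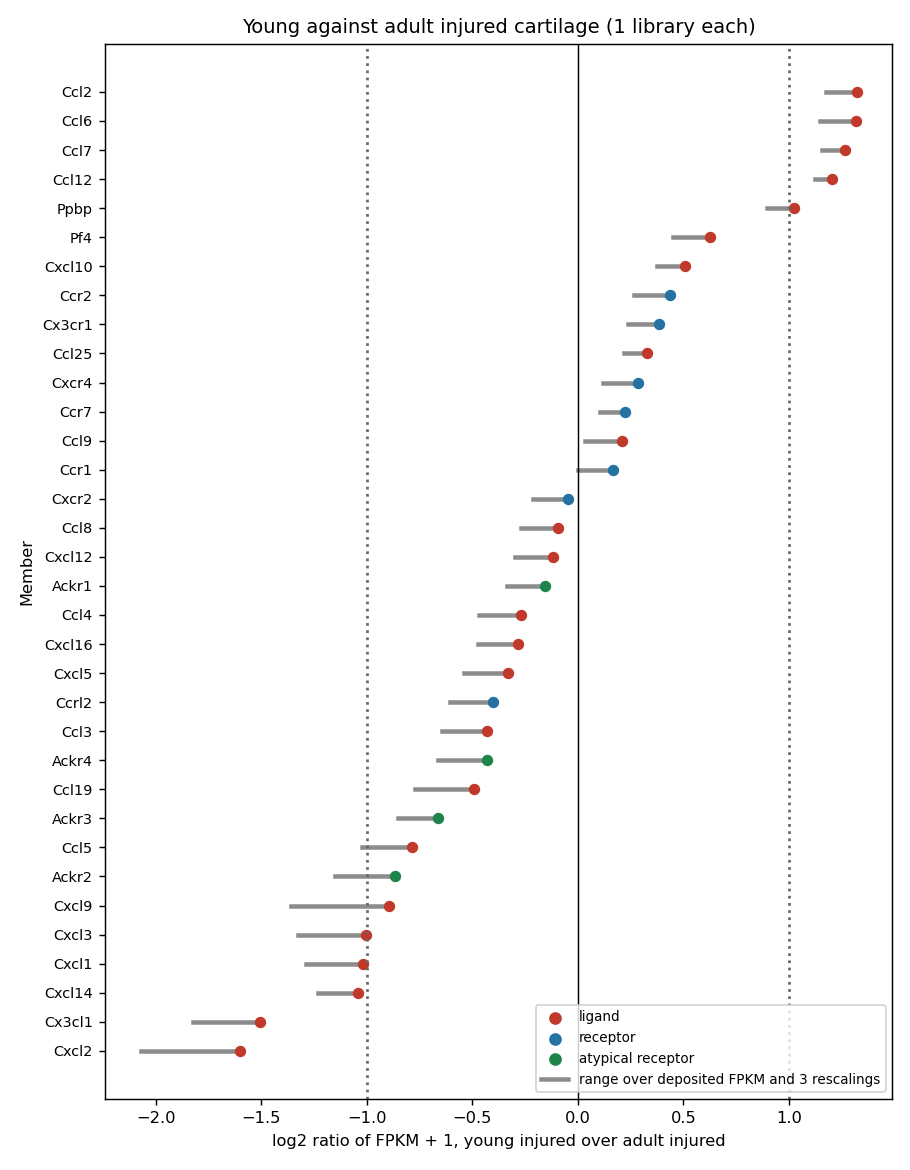
Dot plot of the log2 ratio of FPKM + 1, young injured over adult injured (1 library each), for the 34 members at 1 FPKM or more in any library; dots are the deposited FPKM, gray bars the range over the deposited FPKM and 3 rescalings, and dotted lines mark 2-fold. Ccl2, Ccl6, Ccl7 and Ccl12 lie beyond 1 under each scaling, and Cxcl2, at -1.60, is the lowest.

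The injury ratio itself was larger in young than in adult mice for 24 of 44 members, or 54.5%, and for 33.7% of all genes. After median-of-ratios scaling it was larger for 24 of 44 members and for 49.6% of all genes, so the contrast with all genes depends on the scaling. The largest differences, with the young ratio above the adult one for Ccl7, Ccl2 and Ccl12 and below it for Cxcl1, Cxcl2 and Cxcl3, involve sham levels at or near 0, so their size depends on the added 1 FPKM and is not given. As deposited, 12 of 14 macrophage and monocyte markers had the larger ratio in young mice, with a median log2 difference of 1.08. So did 8 of 12 neutrophil and 2 of 12 chondrocyte markers. The part of these cells in the member ratios was not tested.

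The intracellular relay of chemokine receptors was examined through 36 signaling genes, among them G protein subunits, Rac activators and Src family kinases. In young mice 13 (36.1%) were higher after injury and 0 lower, against 4.57% and 1.27% of all genes, and in adults 16 (44.4%) were higher and 0 lower, against 6.9% and 1.46%, with median log2 ratios of 0.49 and 0.91. Gnai2, the inhibitory G protein subunit of leukocytes, was at 75.2, 115.8, 120.6 and 118.8 FPKM and did not reach 2-fold. Larger ratios were found for Dock2, a Rac activator of leukocytes, at 1.59, 8.19, 0.992 and 4.88 FPKM, and for the kinase Lyn at 4.51, 18.3, 2.51 and 11.8 FPKM. Wipf1, a partner of the actin regulator Was, was at 7.14, 6.36, 0.963 and 7.33 FPKM, so that the adult sham library stood apart. Between sham libraries 4 of the 36 (11.1%) were lower in adults, against 10.6% of all genes, and 0 were higher, against 2.66%, shares that depend on the scaling as given above. Between the injured libraries 0 of the 36 differed 2-fold, against 3.09% of all genes higher in young and 1.8% lower.

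Of 12 genes that process or display chemokines, 3 were higher in young and 5 in adult injured cartilage, against 4.57% and 6.9% of all genes, and 0 were lower, against 1.27% and 1.46%. Mmp9, a gelatinase that trims chemokines, was at 66.5, 227.4, 40.6 and 201.3 FPKM. Tnfaip6, a hyaluronan-binding protein that also binds chemokines, was at 2.42, 8.003, 1.11 and 13.5 FPKM, the highest level being that of adult injured cartilage. The heparan sulfate carrier Sdc4 was at 170.4, 95.5, 268.9 and 191.1 FPKM, below 2-fold at both ages. Of 12 feedback targets of NF-kB, 3 were higher at each age and 0 lower, beside the same shares of all genes. Bcl3 was at 1.17, 10.1, 0.915 and 16.1 FPKM and Nfkbiz at 3.14, 7.77, 2.66 and 12.1 FPKM, both higher in the injured library of each age. Between the injured libraries 0 of the 12 differed 2-fold. Their median log2 ratio, young over adult injured, was -0.45, against 0.04 over all genes. Nfkbia, at 24.7, 34.4, 47.3 and 49.9 FPKM, differed more by age than by injury.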

How the data were processed

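RNA-seq values were taken from the table the authors deposited, which gives 1 FPKM value per gene in each of 4 libraries (1 pool of mice per group). The submitters' processing notes name HISAT2 2.1.0, HISAT, STAR, StringTie 1.3.4d, SAMtools and the mouse build mm10, without saying which step each tool performed, so the aligner behind the values is unclear.

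FPKM values were compared as log2(FPKM + 1). With 1 library per group there is no replicate error, no interval and no test, and changed means 2-fold or more. The background was the 18181 genes above 0 in at least 1 library. The smallest steps of FPKM times transcript length correspond to about 25600000 to 30800000 fragments per library if 1 step is 1 fragment; fragments per gene were derived from this and are approximate. Alternatives were pseudocounts of 0.1 and 5 FPKM, rescaling to equal sums (TPM), to the median of ratios and by quantiles, thresholds of 1.5-fold and 3-fold, and other member sets. As a check of the code only, 200 genes of a copy of the young sham library were changed 4-fold without added noise. All 200 were recovered and 0 others called among 24532, an outcome fixed by the arithmetic, so it gives no error rate.

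All 44 members were accounted for: those at 1 FPKM or more in any library with 4 values, the others by their highest value. For other lists, most genes named were taken from the 2 of highest mean and the 2 of largest ratio; marker genes listed at 0 (Cd3g, Cd3e, Gp6) were named after their values were seen. Members and lists were chosen with earlier results of these data known. Promoters and gene positions were from RefSeq (GRCm38.p6); 4 promoter stretches were printed where 3 had been planned, and motifs were searched on both strands. Python 3.11.15, numpy 2.4.6, pandas 2.3.3 and matplotlib 3.10.9 were used.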

Additional observations from a re-analysis of the deposited data

Results flagged for a closer look

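Cxcl14 had injury ratios of opposite sign at the 2 ages, at -0.27 (young) and 0.32 (adult) on the log2 scale, a difference of -0.59. The same held for Cx3cl1, at 0.06 and -0.48 with a difference of 0.55, and for Ackr4, at 0.35 and -0.06 with a difference of 0.41. These 3 members stood out because the direction differed between the ages, and with 1 library per group the difference was not tested. None of the 6 ratios reached 2-fold. The young ratio of Cx3cl1 ranged from -0.06 to 0.08 over the scalings and the adult ratio of Ackr4 from -0.44 to 0.01, so their signs depended on the scaling.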

How the results depend on the processing

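No paired analysis was possible because each group has 1 library, and for the same reason no library could be left out. No difference counted as changed reversed its direction. A pseudocount of 5 FPKM lowered the members counted as higher after injury from 21 to 12 in young and from 22 to 9 in adult mice, those lower in adults from 2 to 1, and those higher and lower in young against adult injured cartilage from 5 to 2 and from 5 to 0; the median ratios became 0.39 in young and 0.58 in adult mice. A pseudocount of 0.1 FPKM gave 1 member lower in young and 4 lower in adult injury, 8 higher and 5 lower between the sham libraries, and medians of 1.48 and 1.78. With TPM, 1 member was lower between shams, 8 were lower in young against adult injured cartilage, and the adult median was 1.31. Scaling by the median of ratios gave 5 members higher between shams, and quantile scaling also 5, with an adult median of 0.74 and a sham median of 0.22. A 1.5-fold threshold gave 2 lower in young injury, 5 higher and 2 lower between shams and 9 lower between the injured libraries; a 3-fold threshold gave 0 lower in adult injury, 1 higher between shams, and 0 higher and 1 lower between the injured libraries. Keeping members with a mean of 1 FPKM gave medians of 1.39 and 1.67, and taking in the 21 other family genes gave 0.21 and 0.53. Under quantile scaling, which was chosen for sums after seeing the data, the log2 ratio of summed levels, young over adult injured, was 0.32 rather than 0.62 for the eotaxins, -0.27 rather than -0.07 for the ligands of Ccr4, Ccr7 and Ccr9, and -1.55 rather than -1.34 for the Cxcr2 ligands without Ppbp. The cause of these shifts beyond the setting itself was not tested. Over 10891 genes at 1 FPKM or more in every library, the median adult injury ratio was 0.23 as deposited and -0.00 after median-of-ratios scaling. How many fragments stand behind a low level depends on transcript length: Ccl2 at 0.0948 FPKM rests on about 2.02, Cxcl9 at 0.118 on about 8.95.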
